A study of Mus musculus with 9 samples.

Results

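Ido1, Ido2, Arg1, Arg2, Ass1, Asl, Nos2 and Odc1 encode enzymes that consume tryptophan or make, consume and pass on arginine. They were chosen by gene symbol, with earlier results of these data known, so counts of calls among them are descriptions only. These are 8 of the 23234 genes listed in every library, and each symbol was found once. Levels are FPKM, fragments per kilobase of transcript scaled to the mapped fragments of the library, so genes can be compared per length. The cells were group 2 innate lymphoid cells (ILC2s) taken from lymphoid clusters in the fat of wild-type C57BL/6 mice. All cultures received IL-33 at 10 ng/ml for 48 h. In one group IFN-γ was added at 10 ng/ml, in another IL-27 at 10 ng/ml, and the third had IL-33 alone. Each group had 3 libraries, numbered 1 to 3 in the labels. Nothing says whether these came from separate cultures, pooled animals or single mice, so p-values measure the spread between libraries, which may be technical.

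Indoleamine 2,3-dioxygenase, the product of Ido1, opens the tryptophan ring and so starts the kynurenine pathway, and it is a classical target of IFN-γ in macrophages and dendritic cells. Arginine is shared between arginases, which yield ornithine and urea, and nitric oxide synthases, which yield nitric oxide and citrulline. Ass1 and Asl rebuild arginine from citrulline, and Odc1 turns ornithine into putrescine, the first polyamine. Arginase 1 is known as an abundant product of ILC2s.

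The FPKM of a library summed to between 628625 and 672534, and the steps between low values corresponded to roughly 965000 to 1070000 fragments per library, a modest depth. At that depth 1 fragment was worth about 0.642 to 0.712 FPKM for Ido1 and 0.234 to 0.26 FPKM for Nos2, so values below a few FPKM rest on few fragments. All 12 ILC2 markers were present in the libraries. Their summed level was 5612 to 8678 FPKM with IFN-γ, 11672 to 12022 FPKM with IL-27 and 14402 to 22190 FPKM with IL-33 alone, and the cytokine genes Il5 and Il13 made up most of it. Gata3, the lineage factor, had 185 to 271 FPKM with IFN-γ, 231 to 348 FPKM with IL-27 and 161 to 272 FPKM with IL-33 alone. Klrg1, a surface marker, had 177 to 257, 181 to 355 and 159 to 277 FPKM in the same groups. Il2ra, another surface marker, was lower with both cytokines, at 314.5 to 414, 413 to 576 and 877 to 1018 FPKM. Groups set apart in that direction were found for 8.65% of tested genes with IFN-γ and 5.72% with IL-27. Il5 was also set apart from IL-33 alone with both cytokines, and Il13 with IFN-γ. The remaining markers overlapped with IL-33 alone in both groups. Of the 14 macrophage and monocyte markers, Csf1r, Mrc1, Fcgr1, Mertk and Retnla were at 0 in all 9 libraries. The list's sum was 78.6 to 229 FPKM with IFN-γ, 91.3 to 293 FPKM with IL-27 and 33.5 to 123 FPKM with IL-33 alone, mostly from Ccr2, Ly6c2 and Cd68. Of the 9 dendritic cell markers, Clec9a, Batf3 and Cd209a were at 0 in all libraries, and the sum was 10.1 to 11.6, 11.9 to 12.4 and 7.31 to 13.7 FPKM in the IFN-γ, IL-27 and IL-33 groups. The 9 fibroblast markers summed to 3.94 to 88.4 FPKM with IFN-γ, 7.67 to 63.7 FPKM with IL-27 and 2.92 to 36.2 FPKM with IL-33 alone. Their sum was highest in replicate 3 of every group. The neutrophil, mast cell and basophil, and adipocyte and endothelial lists summed to at most 11.4, 11.5 and 0.3 FPKM in a library, and the T and B cell list to at most 102 FPKM, with Cd4 at 0 throughout. The part of these cells in the results was not tested.

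Arg1 was the most abundant of the 8 genes in each group, and Odc1 and Ass1 came next. With IFN-γ the order by mean FPKM was Arg1, Odc1, Ass1, Asl, Ido1, Nos2, Ido2 and Arg2, and the libraries of Odc1 and Ass1 overlapped, as did those of Asl and Ido1. With IL-27 the order was the same, and each of Arg1, Odc1, Ass1, Asl and Ido1 stood clear of the next; Nos2 and Ido2 overlapped. With IL-33 alone Nos2 came before Ido1, and the libraries of Ass1 and Asl overlapped, as did those of Nos2 and Ido1.

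**Figure D1:**
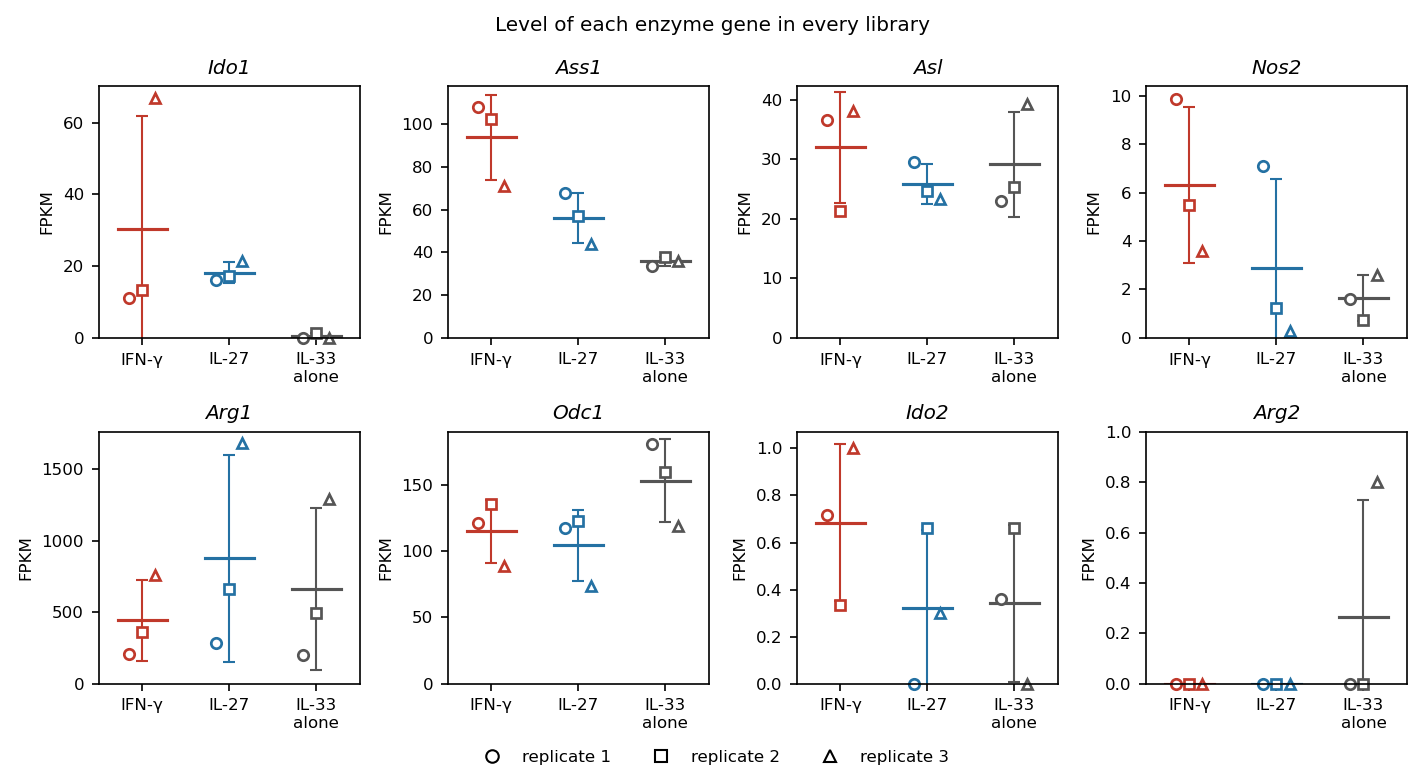
FPKM of each gene in every library, for IFN-γ, IL-27 and IL-33 alone (all with IL-33). Points are libraries, with 1 shape per replicate number, horizontal bars are means and whiskers are 1 SD, those that pass below 0 ending at the axis. Ido1 is near 0 in the IL-33 group and at 11.2 FPKM or more elsewhere, Ass1 separates all 3 groups, and Arg1 is spread by replicate number.

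Ido1 rose with either added cytokine, and Ass1 rose with IFN-γ. Ido1 was 17.1-fold higher with IFN-γ and 14.3-fold higher with IL-27 than with IL-33 alone, and Ass1 was 2.54-fold higher with IFN-γ. The test was limma on log2(FPKM + 1), fitted to the 11014 genes that averaged 1 FPKM or more over the libraries, with p-values adjusted by Benjamini-Hochberg and a threshold of 0.05. Of the 8 enzyme genes, 6 were tested; Ido2 and Arg2 were below the filter, and Ido1 passed it through the 2 groups with added cytokine. With IFN-γ 2 enzyme genes rose and none fell, beside 2.91% of all tested genes called (2.19% higher and 0.717% lower). With IL-27 1 rose and none fell, beside 1.03% of all tested genes (0.908% higher and 0.118% lower). Between IFN-γ and IL-27 none passed, beside 0% of all tested genes (483 genes had an unadjusted p under 0.05). Libraries of equal number varied together, so a second fit took that number as a factor; it is called the blocked fit and appears where it changed a call. It called 11.2% of tested genes with IFN-γ, 5.15% with IL-27 and 0.182% between them.

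**Figure D2:**
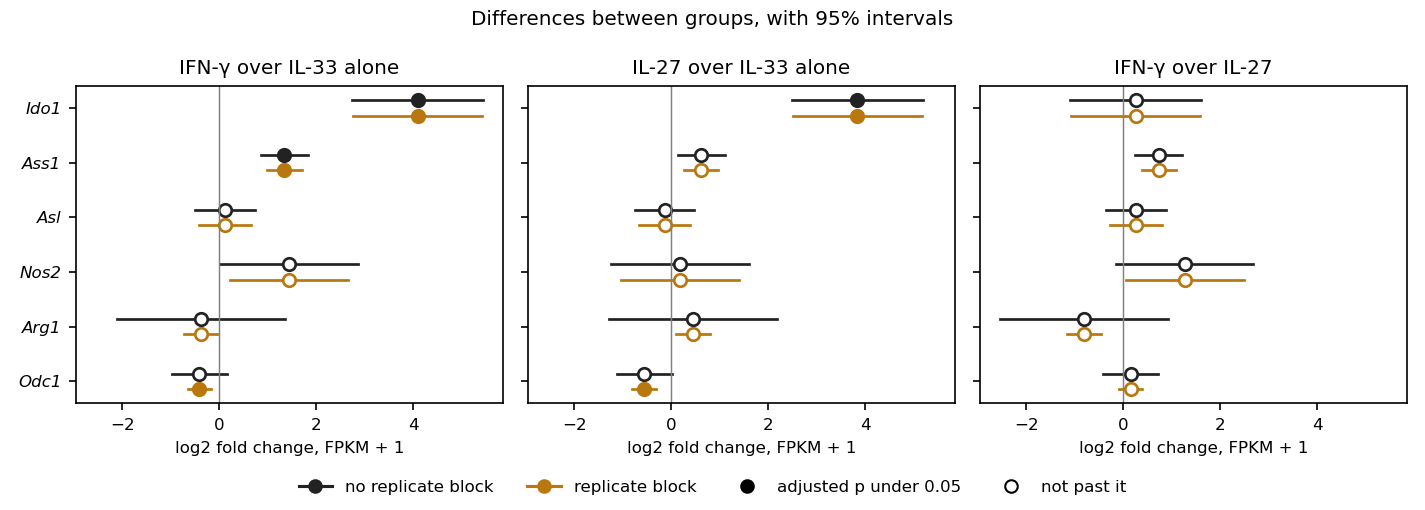
Log2 fold change (FPKM + 1) of the 6 tested genes in the 3 comparisons, with 95% intervals from limma. Black is the fit without the replicate block, brown the fit with it, and filled points have an adjusted p under 0.05. Ido1 is filled against IL-33 alone with both cytokines, Ass1 with IFN-γ, and Odc1 in the blocked fit alone.

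Ido1 lies on chromosome 8 (mm9, chr8:25694608-25707481, minus strand), and its longest annotated transcript has 10 exons. With IFN-γ its level was 11.2, 13.2 and 66.8 FPKM in replicates 1, 2 and 3. With IL-27 it was 16.0, 17.2 and 21.4 FPKM, and with IL-33 alone it was listed at 0, 1.38 and 0 FPKM. All 6 libraries with added cytokine lay above the IL-33 libraries. Groups set apart in that direction were found for 11.9% of tested genes with IFN-γ and 8.29% with IL-27. Replicate 3 with IFN-γ stood far above the other Ido1 values. The difference with IFN-γ was 4.09 ± 0.61 (log2, SE; adjusted p = 0.00564), and with IL-27 it was 3.84 ± 0.61 (adjusted p = 0.0178). The first call was kept without each library in turn (adjusted p 0.0073 to 0.0387), and without IFN-γ replicate 3 the log2 value was 3.30. The second did not hold on leaving out the IL-33 library of number 1 (adjusted p = 0.0917) or 3 (adjusted p = 0.0572), or the IL-27 library of number 1 (adjusted p = 0.0748), 2 (adjusted p = 0.0702) or 3 (adjusted p = 0.0933); the log2 values of these 5 fits were 3.63 to 3.92. These folds understate the ratio of a gene near 0. By the estimated depth the 3 libraries of a group together held about 137 Ido1 fragments with IFN-γ, 82 with IL-27 and 2 with IL-33 alone. The ratios over IL-33 were 67.9 (95% interval 18.5 to 567) and 40.4 (10.8 to 339), the intervals covering counting error only and not the spread between libraries. About 101 of the 137 came from replicate 3 with IFN-γ. Replicates 1 and 2 with IFN-γ held about 16 and 20, beside 23, 27 and 32 in the IL-27 libraries. In such bulk libraries, fewer cells expressing a gene and less of its RNA per cell cannot be told apart. Of the macrophage and monocyte markers, Ly6c2 was also higher with either cytokine in every library, at 38.9, 82.8 and 79.6 FPKM with IFN-γ, 29.4, 34.3 and 36.3 FPKM with IL-27, and 5.11, 16.4 and 5.0 FPKM with IL-33 alone, while Csf1r, Mrc1, Fcgr1, Mertk and Retnla were at 0 in all groups. Emr1 was low and ran mostly the other way, at 2.34, 2.14 and 0.3 FPKM with IL-33 alone. With IFN-γ it had 0.664, 0.619 and 0 FPKM, and with IL-27 0, 0 and 0.6 FPKM. Chi3l3 was at 0, 0.697 and 0.8 FPKM with IL-33 alone and at 0 with either cytokine. Cd68 and Ccr2 overlapped between the groups. The part of macrophages and monocytes in the Ido1 values was not tested.

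Ido2, a less active relative of Ido1, is its neighbour on the same strand (chr8:25642364-25686805), 7802 bases away. Its level was 0.719, 0.335 and 1.0 FPKM with IFN-γ, 0, 0.663 and 0.3 FPKM with IL-27, and 0.362, 0.663 and 0 FPKM with IL-33 alone. The 3 groups overlapped, and no library held more than about 3 fragments. Tested without the filter, it differed by 0.34 (log2) with IFN-γ (adjusted p = 0.658) and by -0.02 with IL-27 (adjusted p = 1). A change of Ido2 was not detectable at this depth.

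Of the 18 genes listed for tryptophan catabolism and sensing, 10 were tested, and Ido1 was the one that rose with IFN-γ and with IL-27; none fell. The median difference of the 10 was 0.22 (log2) with IFN-γ and -0.01 with IL-27, beside 0.03 and 0.01 over all tested genes. Tdo2, the liver dioxygenase for tryptophan, was at 0 in all libraries. In the blocked fit Kmo and Tph1 also passed with IFN-γ; these names were chosen after their values were seen. Kmo, which hydroxylates kynurenine, had 3.96, 1.64 and 1.7 FPKM with IFN-γ, 1.35, 0.406 and 1.3 FPKM with IL-27, and 0.887, 0 and 0 FPKM with IL-33 alone. Its level with IFN-γ was above every IL-33 library, as for 11.9% of tested genes in that direction, but low. The blocked log2 difference was 1.41 (adjusted p = 0.0366, and 0.161 unblocked). Kmo passed the filter through the groups with added cytokine, and without the filter its adjusted p was 0.122 unblocked. Tph1, which takes tryptophan towards serotonin, had 75.4, 98.6 and 140 FPKM with IFN-γ, 89.2, 195 and 279 FPKM with IL-27, and 131, 350 and 353 FPKM with IL-33 alone. The IFN-γ and IL-33 groups overlapped in 1 library each. Within each replicate number the IFN-γ library was the lower, as for 21.1% of tested genes. The blocked log2 difference of Tph1 was -1.31 (adjusted p = 0.00522, and 0.223 unblocked). Without the replicate 3 libraries neither passed in the blocked fit (adjusted p = 0.0860 for Kmo and 0.0823 for Tph1). That smaller fit called fewer genes altogether. It called 302 of the 11014 tested genes with IFN-γ, beside 1230 with all 9 libraries, and 96 with IL-27, beside 567.

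The aryl hydrocarbon receptor binds kynurenine among other ligands, and 7 of 8 genes listed for it and its usual targets were tested. None rose or fell in any comparison, in the blocked fit either. Against IL-33 alone, Ahrr, the receptor's repressor and a target of it, came closest without the block. It had 5.58, 6.45 and 8.6 FPKM with IFN-γ, 3.42, 6.17 and 6.6 FPKM with IL-27, and 3.37, 3.70 and 2.2 FPKM with IL-33 alone. All IFN-γ libraries exceeded the IL-33 libraries, as for 11.9% of tested genes in that direction. The difference was 0.95 ± 0.30 (log2, adjusted p = 0.163) with IFN-γ and 0.62 ± 0.30 (adjusted p = 0.563) with IL-27. Nqo1, chosen after its values were seen, came closest against IL-33 alone in the blocked fit and ran the other way. It had 17.2, 28.6 and 5.8 FPKM with IFN-γ, 22.2, 19.4 and 12.1 FPKM with IL-27, and 27.9, 58.7 and 14.9 FPKM with IL-33 alone. Both cytokine libraries were lower in all 3 numbers, as for 21.1% of tested genes with IFN-γ and 19.5% with IL-27.

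Argininosuccinate synthase, encoded by Ass1, joins citrulline and aspartate and limits the rebuilding of arginine. The gene lies on chromosome 2 (mm9, chr2:31325727-31376192, plus strand). RefSeq promoter entries were matched for 2 of the 8 genes, Ass1 and Odc1. The 250 bases before their start sites are shown because Ass1 was called without the block and Odc1 with it, in opposite directions (build GRCm38.p6, plus strand, chr2:31470020-31470269 for Ass1 and chr12:17544623-17544872 for Odc1); capitals mark the E-box CACGTG.
Ass1: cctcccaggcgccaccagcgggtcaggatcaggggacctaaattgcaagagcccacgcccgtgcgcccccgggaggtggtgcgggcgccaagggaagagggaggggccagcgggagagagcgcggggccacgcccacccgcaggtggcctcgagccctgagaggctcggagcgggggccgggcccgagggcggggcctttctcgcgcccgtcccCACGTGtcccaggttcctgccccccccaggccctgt
Odc1: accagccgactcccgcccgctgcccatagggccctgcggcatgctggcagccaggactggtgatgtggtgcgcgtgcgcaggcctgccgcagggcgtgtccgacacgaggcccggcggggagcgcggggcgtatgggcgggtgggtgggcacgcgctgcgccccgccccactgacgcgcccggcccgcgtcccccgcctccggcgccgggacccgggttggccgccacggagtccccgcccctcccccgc
The E-box is a motif bound by Myc and its relatives. The Ass1 stretch held 1, its first base 36 bases before the start site, and the Odc1 stretch held none; 6.02% of 32851 promoter stretches of this length held it. The motif was searched on both strands of these 250 bases and nowhere else in the genes. Its absence from a stretch therefore does not show that the gene lacks it. A match describes the letters only.

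Ass1 had 108, 103 and 71.0 FPKM with IFN-γ, 67.6, 56.8 and 43.9 FPKM with IL-27, and 33.8, 37.8 and 35.8 FPKM with IL-33 alone. The 3 groups did not overlap, with IFN-γ highest and IL-33 alone lowest, and the means were 93.9 ± 20.0, 56.1 ± 11.9 and 35.8 ± 2.0 FPKM (SD, n = 3 each). The difference with IFN-γ was 1.34 ± 0.22 (log2, SE; adjusted p = 0.00907). It was lost without IFN-γ replicate 2 (log2 1.27, adjusted p = 0.055) and kept without each of the other 8 libraries. With IL-27 it was 0.61 ± 0.22 (95% interval 0.13 to 1.10), which did not pass over all genes (adjusted p = 0.358; 0.0647 in the blocked fit). Within replicate numbers 1, 2 and 3, Ass1 with IFN-γ was 3.19, 2.71 and 1.98 times its level with IL-33 alone, and with IL-27 it was 2.00, 1.5 and 1.23 times that level. Groups that do not overlap, with the added cytokine higher, were found for 11.9% of tested genes with IFN-γ and 8.29% with IL-27, and higher values in all 3 numbers for 24.4% and 23.1%.

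Asl, whose product argininosuccinate lyase releases arginine in the step after Ass1, lies on chromosome 5 (chr5:130487128-130501002, minus strand). It had 36.6, 21.3 and 38.1 FPKM with IFN-γ, 29.6, 24.6 and 23.3 FPKM with IL-27, and 23.0, 25.3 and 39.3 FPKM with IL-33 alone. The 3 groups overlapped. The difference was 0.12 ± 0.28 (log2; adjusted p = 0.894) with IFN-γ and -0.14 ± 0.28 (adjusted p = 0.928) with IL-27, and its sign changed when single libraries were left out.

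Of the 17 genes of arginine and the urea cycle, 10 were tested. With IFN-γ Ass1 rose and none fell, and with IL-27 none passed. The median difference was -0.22 (log2) with IFN-γ and -0.21 with IL-27. Otc, Cps1 and Nags, the urea cycle enzymes of liver mitochondria, were at 0 in all libraries.

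Arg1, for arginase 1, lies on chromosome 10 (chr10:24635014-24647276, minus strand). It had 210, 362 and 761 FPKM with IFN-γ, 287, 662 and 1682 FPKM with IL-27, and 200, 492 and 1292 FPKM with IL-33 alone. The groups overlapped, and in every group replicate 1 was lowest and replicate 3 highest. The highest library of a group was 3.62 times the lowest with IFN-γ, 5.86 times with IL-27 and 6.44 times with IL-33 alone. Against this spread the difference was -0.38 ± 0.78 (log2; 95% interval -2.11 to 1.35, adjusted p = 0.883) with IFN-γ and 0.44 ± 0.78 (-1.29 to 2.17, adjusted p = 0.92) with IL-27.

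Between libraries of equal number the ratios spread less. With IL-27 Arg1 was 1.43, 1.35 and 1.3 times the IL-33 library of equal number. With IFN-γ it was 1.05, 0.735 and 0.589 times that library. The blocked fit gave the same differences with an SE of 0.15, and neither passed over all genes (adjusted p = 0.158 with IFN-γ and 0.157 with IL-27). Of all tested genes, 23.1% were higher with IL-27 in all 3 numbers. Ccr2, a chemokine receptor of the macrophage and monocyte list that ILC2s can also express, was ordered by replicate number in the same way. It had 19.2, 48.1 and 136 FPKM with IFN-γ, 56.2, 88.9 and 238 FPKM with IL-27, and 21.0, 36.3 and 106 FPKM with IL-33 alone. Of the ILC2 markers, Il1rl1, Klrg1, Rora, Icos and Ptprc also rose from number 1 to 3 in every group. Il1rl1 had 253, 303 and 435 FPKM with IFN-γ, 415, 549 and 976 FPKM with IL-27, and 384, 478 and 846 FPKM with IL-33 alone. Gata3, Il7r, Il2ra, Kit, Il5, Il13 and Thy1 were not ordered so, nor were Ly6c2 and Cd68. The cause of this order was not tested.

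Arg2, for the mitochondrial arginase, was listed at 0 in 8 libraries and at 0.8 FPKM in replicate 3 with IL-33 alone, which is about 1 fragment. It lies on chromosome 12 (chr12:80231764-80257288, plus strand) and overlaps Vti1b on the other strand. Arginase transcripts in these cells were thus almost all Arg1 by level per length.

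Nos2, the inducible nitric oxide synthase, lies on chromosome 11 (chr11:78734289-78773756, plus strand). It had 9.87, 5.47 and 3.6 FPKM with IFN-γ, 7.08, 1.23 and 0.3 FPKM with IL-27, and 1.61, 0.738 and 2.6 FPKM with IL-33 alone. The IFN-γ libraries all lay above the IL-33 libraries, as for 11.9% of tested genes in that direction. The IL-27 libraries ranged from the lowest of the 9 to the second highest. The difference with IFN-γ was 1.44 ± 0.64 (log2; 95% interval 0.02 to 2.86), which did not pass over all genes (adjusted p = 0.317; 0.127 in the blocked fit). With IL-27 it was 0.17 ± 0.64 (adjusted p = 0.967). By the estimated depth the groups held about 77, 33 and 19 Nos2 fragments with IFN-γ, IL-27 and IL-33 alone. About 27 of the 33 with IL-27 came from replicate 1. At its highest Nos2 was still far below Arg1 per length.

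Of the 16 genes listed for nitric oxide synthases, their cofactor tetrahydrobiopterin (BH4) and nitric oxide sensing, 8 were tested. None passed in any comparison without the block. The median difference was 0.03 (log2) with IFN-γ and -0.03 with IL-27. Nos1 and Nos3, the neuronal and endothelial synthases, were at 0 in all libraries. Gch1, which starts the synthesis of tetrahydrobiopterin, had 5.13, 10.3 and 4.9 FPKM with IFN-γ, 6.04, 8.37 and 7.9 FPKM with IL-27, and 11.1, 16.7 and 9.4 FPKM with IL-33 alone. Its IL-33 libraries were higher than the libraries of equal number with either cytokine (as for 21.1% of tested genes with IFN-γ, 19.5% with IL-27). The difference with IFN-γ was -0.82 ± 0.31 (log2; adjusted p = 0.248; 0.0492 in the blocked fit, and 0.145 there without the replicate 3 libraries), and with IL-27 it was -0.64 ± 0.31 (adjusted p = 0.572).

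Odc1, for ornithine decarboxylase, lies on chromosome 12 (chr12:17551679-17558308, plus strand) and holds the small RNA gene SNORA42 within its span. It had 121, 135 and 88.8 FPKM with IFN-γ, 117, 122 and 73.6 FPKM with IL-27, and 180, 160 and 119 FPKM with IL-33 alone. The groups overlapped through replicate 3 with IL-33 alone, but within every replicate number both cytokine libraries lay below the IL-33 library. Odc1 was 0.671, 0.848 and 0.747 times the IL-33 library with IFN-γ, and 0.649, 0.766 and 0.619 times it with IL-27. The difference was -0.41 ± 0.25 (log2; adjusted p = 0.504) with IFN-γ and -0.56 ± 0.25 (adjusted p = 0.53) with IL-27. The blocked fit called both (adjusted p = 0.0449 with IFN-γ and 0.0228 with IL-27). Without the replicate 3 libraries the blocked differences were -0.40 with IFN-γ (adjusted p = 0.156) and -0.50 with IL-27 (adjusted p = 0.178), and neither passed. Lower values in all 3 numbers were found for 21.1% of tested genes with IFN-γ and 19.5% with IL-27.

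Of the 18 genes of polyamine synthesis, turnover and hypusine, 13 were tested and none passed without the block. The median difference was -0.41 (log2) with IFN-γ and -0.34 with IL-27, beside 0.03 and 0.01 over all tested genes. The value was below 0 for 11 and 12 of the 13. The blocked fit called 4 lower and 1 higher with IFN-γ, and 4 lower with IL-27. The 4 were Odc1, Srm, Sms and Eif5a in both comparisons, and the higher one was Oaz1. Over all 11014 tested genes this fit called 513 lower and 717 higher with IFN-γ, and 196 lower and 371 higher with IL-27. Srm, Eif5a and Oaz1 were named after their values were seen. Srm, the spermidine synthase, had 133, 128 and 50.9 FPKM with IFN-γ, 127, 102 and 64.2 FPKM with IL-27, and 230, 204 and 123 FPKM with IL-33 alone. Each cytokine library lay below the IL-33 library of its number, as for 21.1% of tested genes with IFN-γ and 19.5% with IL-27. The blocked log2 difference of Srm was -0.90 with IFN-γ (adjusted p = 0.00675) and -0.92 with IL-27 (adjusted p = 0.00961).

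Sms, the spermine synthase, had 35.3, 38 and 18.9 FPKM with IFN-γ, 29.7, 32.9 and 20.9 FPKM with IL-27, and 44.9, 57.5 and 41.7 FPKM with IL-33 alone. Neither cytokine group overlapped the IL-33 group, as for 8.65% of tested genes with IFN-γ and 5.72% with IL-27 in that direction. The unblocked log2 difference was -0.67 with IFN-γ (adjusted p = 0.298) and -0.78 with IL-27 (adjusted p = 0.393). Eif5a, the translation factor that carries the spermidine-derived hypusine, had 1268, 1618 and 925 FPKM with IFN-γ, 1374, 1604 and 898 FPKM with IL-27, and 1926, 1989 and 1443 FPKM with IL-33 alone. Its values ran lower within each number, as for 21.1% of tested genes with IFN-γ and 19.5% with IL-27. The blocked log2 difference of Eif5a was -0.51 with IFN-γ (adjusted p = 0.0171) and -0.49 with IL-27 (adjusted p = 0.0315). Oaz1, the antizyme that inhibits ornithine decarboxylase and sends it to degradation, had 92.4, 116 and 140 FPKM with IFN-γ, 95.5, 111 and 127 FPKM with IL-27, and 58.1, 93.3 and 101 FPKM with IL-33 alone. It was higher within each number, as for 24.4% of tested genes with IFN-γ and 23.1% with IL-27. The blocked log2 difference of Oaz1 was 0.48 with IFN-γ (adjusted p = 0.0358) and 0.43 with IL-27 (adjusted p = 0.0826). Without the replicate 3 libraries the blocked fit kept Srm with IFN-γ (adjusted p = 0.0498) and none of this list with IL-27.

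**Figure D3:**
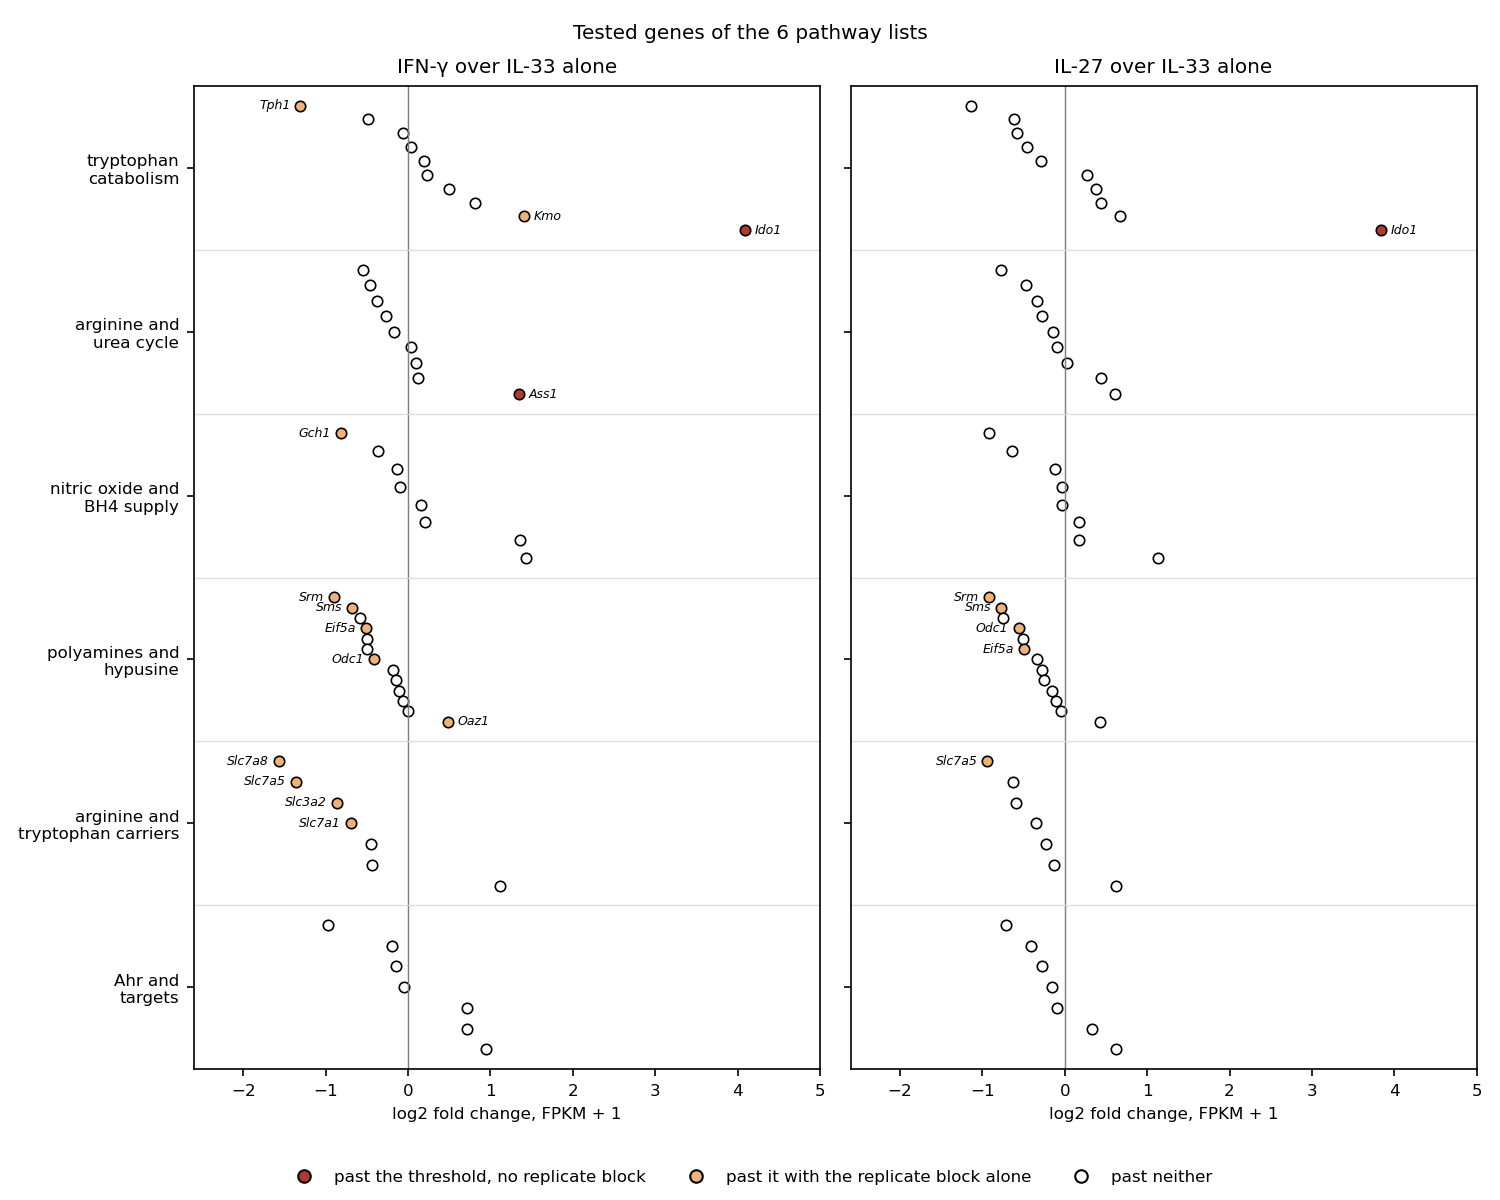
Log2 fold change (FPKM + 1) of the tested genes of the 6 pathway lists, with IFN-γ (left) and IL-27 (right) over IL-33 alone. Each point is a gene, placed by rank within its list, with 1 gene of the arginine list not drawn; dark red passed without the replicate block, light orange in the blocked fit alone, and white in neither. Ido1 and Ass1 are the dark red points, and light orange points of the polyamine and carrier lists lie below 0 except Oaz1.

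Arginine and tryptophan enter cells through amino acid carriers, and 7 of the 10 listed were tested. None passed without the block; the median difference was -0.69 (log2) with IFN-γ and -0.35 with IL-27. Slc7a5, the light chain of the carrier for large neutral amino acids such as tryptophan, came closest. It had 25.9, 35.0 and 14.4 FPKM with IFN-γ, 34.6, 42.0 and 22.4 FPKM with IL-27, and 79.3, 69.5 and 43.6 FPKM with IL-33 alone. Neither cytokine group overlapped the IL-33 group, as for 8.65% of tested genes with IFN-γ and 5.72% with IL-27 in that direction (log2 -1.36 ± 0.36, adjusted p = 0.0847 with IFN-γ; -0.94 ± 0.36, adjusted p = 0.411 with IL-27), and the blocked fit called both (adjusted p = 0.0015 with IFN-γ and 0.0121 with IL-27). Without the replicate 3 libraries the blocked call with IFN-γ was kept (adjusted p = 0.0473) and that with IL-27 was not (adjusted p = 0.123).

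The blocked fit also called Slc7a8, Slc7a1 and Slc3a2 lower with IFN-γ, names chosen after their values were seen. Without the replicate 3 libraries Slc7a8 was kept (adjusted p = 0.0384), and Slc7a1 (adjusted p = 0.145) and Slc3a2 (adjusted p = 0.153) were not. Slc7a1, the main arginine carrier of many cells, had 25.6, 28.6 and 17.9 FPKM with IFN-γ, 26.5, 31.1 and 18.4 FPKM with IL-27, and 50.2, 38.7 and 29.9 FPKM with IL-33 alone (blocked log2 -0.69, adjusted p = 0.0239 with IFN-γ; -0.63, adjusted p = 0.0534 with IL-27). Slc7a8, another neutral amino acid carrier, had 13.2, 19.2 and 41.5 FPKM with IFN-γ, 24.2, 53.5 and 145 FPKM with IL-27, and 38.5, 58.1 and 135 FPKM with IL-33 alone. Its order by replicate number was that of Arg1 (blocked log2 -1.57, adjusted p = 0.00186 with IFN-γ; -0.22, adjusted p = 0.551 with IL-27). It was also the 1 gene of the 6 lists that the blocked fit called between IFN-γ and IL-27 (log2 -1.35, adjusted p = 0.0482; 0.365 without the replicate 3 libraries). Slc3a2, the heavy chain that pairs with Slc7a5 and Slc7a8, had 39.2, 45.2 and 41.3 FPKM with IFN-γ, 53.2, 69.3 and 95 FPKM with IL-27, and 76.4, 60.5 and 98.6 FPKM with IL-33 alone (blocked log2 -0.86, adjusted p = 0.0261 with IFN-γ).

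The comparison of IFN-γ with IL-27 asks whether the cytokines differ in their effect on these enzymes. Ass1 was 1.60, 1.81 and 1.62 times as high with IFN-γ as with IL-27 in replicate numbers 1, 2 and 3. Its groups did not overlap, as for 5.5% of tested genes in that direction (4.03% in the other), and all 3 numbers were higher, as for 18% of tested genes; the difference was 0.73 ± 0.22 (log2; 95% interval 0.25 to 1.22, adjusted p = 0.975; 0.14 in the blocked fit). Arg1 with IFN-γ was 0.733, 0.546 and 0.452 times its level with IL-27, lower in all 3 numbers as for 15.7% of tested genes. This was a difference of -0.82 (95% interval -2.55 to 0.91) without the block and -1.17 to -0.47 in the blocked fit, where it did not pass (adjusted p = 0.103). Nos2 differed by 1.26 (-0.16 to 2.68, adjusted p = 1). Ido1 differed by 0.25 (-1.10 to 1.61, adjusted p = 1), and the sign turned without IFN-γ replicate 3 (-0.53). The differences of Asl (0.26) and Odc1 (0.15) were within the spread between libraries. Elsewhere on the lists the smallest p between IFN-γ and IL-27 belonged to Kmo (log2 0.74), Cyp1a1, a target of the aryl hydrocarbon receptor (0.82), Dohh, which completes hypusine (-0.47), and Slc3a2 (-0.74), each with an adjusted p of 1.

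Across the 9 libraries, the genes whose pattern was most like that of Ido1 were Ctss, Igtp and Gm12250, out of 8437 genes that averaged 5 FPKM or more. Likeness was the root mean square difference of log2(FPKM + 1) after centring, and it was 0.60, 0.61 and 0.63 for these genes, beside a standard deviation of 2.01 for Ido1 itself. Ctss had 34.2, 75.3 and 113 FPKM with IFN-γ, 40.3, 34.0 and 44.3 FPKM with IL-27, and 1.77, 3.24 and 4.4 FPKM with IL-33 alone. For Ass1 the nearest were Exoc4, Tsc22d2 and Eps15, at 0.18, 0.19 and 0.20, beside a standard deviation of 0.59 for Ass1. Exoc4 had 44.4, 42.4 and 32.4 FPKM with IFN-γ, 31.8, 21.3 and 24.7 FPKM with IL-27, and 14.8, 20.4 and 17.7 FPKM with IL-33 alone. These are descriptions over libraries that share 3 groups.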

How the data were processed

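The 9 RNA sequencing libraries of cultured ILC2s were made with the TruSeq v2 kit, per the labels' protocols. Bowtie2 2.1.0, TopHat2 2.0.8, Cufflinks 2.1.1 and build mm9 are named in the submitters' processing notes, without their roles; the gene annotation is not given in the sources used here. The deposited values were read as FPKM, normalised by the authors, from the Cufflinks column header and the values, since no header states the unit. The replicate 3 tables give 1 decimal only. Read counts were not used, and depth was estimated from the steps between low values with GENCODE vM1 (mm9) lengths, so it is approximate.

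Log2(FPKM + 1) of all 9 libraries was fitted with limma 3.58.1 in R 4.3.3 (eBayes with trend, two-sided), without covariates, for genes averaging 1 FPKM or more; the script was tested on simulated data. Folds are on the log2(FPKM + 1) scale and understate changes of low genes. Tables were handled with Python 3.11.15, pandas 2.3.3 and numpy 2.4.6, intervals of ratios with scipy 1.17.1, and figures with matplotlib 3.10.9.

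Deviations from the group means correlated at 0.128 to 0.367 between the 9 pairs of libraries with equal numbers. The 18 other pairs correlated at -0.298 to -0.0251, but centring on group means itself pushes them below 0 once equal numbers correlate above 0. Equal numbers were therefore treated as pairs in the blocked fits, and not in the unblocked fit. The alternatives were a pseudocount of 0.1, no filter, median-of-ratios scaling, the block, each library left out, and replicates 1 and 2 alone. The block on replicates 1 and 2 alone was added after seeing the data. The enzyme genes and lists were chosen with earlier results of these data known. Named are the 8 enzyme genes, up to 4 called genes of each list or otherwise the one with the smallest p, and the 3 genes nearest in pattern to a called enzyme gene; others are marked as chosen later. A gene that the rule would name is not reported here.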

Additional observations from a re-analysis of the deposited data

How the results depend on the processing

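A pseudocount of 0.1 and median-of-ratios scaling kept every call of the 8 enzyme genes, and so did the fit without a filter. The replicate block raised the count of called genes to 1230 with IFN-γ, 567 with IL-27 and 20 between them, and replicates 1 and 2 alone gave 125, 53 and 2; the unblocked counts over 9 libraries were 320, 113 and 0. Without the filter, and with the block on replicates 1 and 2, the direct comparison called 2 genes. The block on replicates 1 and 2 called 302 genes with IFN-γ and 96 with IL-27. Leaving out 1 library gave 157 to 299 genes with IFN-γ, 42 to 122 with IL-27 and 0 to 2 between them. Enzyme genes called ranged over 1 to 2 with IFN-γ and 0 to 1 with IL-27. With IL-27 the block called 2 of them, and replicates 1 and 2 alone called 0, Ido1 then having an adjusted p of 0.0517.

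With IFN-γ the block called 2 genes of the arginine list, 5 polyamine genes, 3 tryptophan genes, 1 nitric oxide gene and 4 carriers. On replicates 1 and 2 it called 1 arginine gene, 1 tryptophan gene, 1 polyamine gene and 2 carriers. With IL-27 the block called 4 polyamine genes, 1 tryptophan gene and 1 carrier, and between the cytokines 1 carrier. Without the block, leaving out 1 library gave 0 to 1 arginine genes with IFN-γ and 0 to 1 tryptophan genes with IL-27. Replicates 1 and 2 alone, without the block, gave 0 of the tryptophan list with IL-27. Apart from Odc1, the block changed no call of the enzyme genes.

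Signs of uncalled differences turned. On replicates 1 and 2, with or without the block, Asl with IL-27 was 0.16 and Ido1 between the cytokines -0.42 (log2). Nos2 with IL-27 was -0.006 at a pseudocount of 0.1. Leaving out 1 library, Arg1 ranged over -1.04 to 0.30 with IFN-γ and -0.22 to 1.12 with IL-27. Asl ranged over -0.024 to 0.38 with IFN-γ and -0.29 to 0.0872 with IL-27. Nos2 with IL-27 ranged over -0.58 to 0.74, and between the cytokines Ido1 ranged over -0.53 to 0.70 and Odc1 over -0.0786 to 0.33. The cause was not tested. Low fragment numbers limit Ido2, Arg2, Kmo and Nos2.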
